A study of Rattus norvegicus with 14 samples.

Results

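DNA methylation was examined along one stretch of rat chromosome 19, from 22 to 26 Mb on rn7, in the soleus of rats bred for high or low running capacity. The members were all 1 kb windows on chromosome 19 with a start over 22000000 and an end of at most 26000000. There were 516 of them among 194367 windows in the table (0.265%), and 390 had a value in every sample (called common windows here). The stretch itself was chosen by its measured levels, namely windows on it that differ between HCR and LCR, so the comparisons of methylation levels between the lines are a description of that choice and no p-value is given for them.

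The samples came from the left soleus of female rats aged 23 to 24 months, all of generation 44 of 2 lines selected out of the heterogeneous N:NIH stock. The high capacity line (HCR) gave 6 samples and the low capacity line (LCR) 8, housed alike on standard chow. Methylation was read by reduced representation bisulfite sequencing (RRBS), in which MspI cuts the DNA at CCGG, short fragments are kept and bisulfite converts unmethylated cytosines. Libraries were pooled before the bisulfite step. Nothing in the labels states that each sample came from a different rat, and the spread between samples may therefore be technical in part. Whole muscle was used, so a level averages over muscle fibres and all other cells of the tissue. Marker genes of the tissue could not be examined, because genes on rn7 were not analysed here, and the windows are given by position without a gene, exon or promoter.

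Methylation of cytosines that precede guanines is copied to the new strand when DNA is replicated. Most such sites in mammalian DNA are methylated, while dense groups of them, the CpG islands found at many gene starts, are usually free of methylation. Intermediate levels in a tissue can come from cells that differ, from alleles that differ, or from neighbouring sites that differ within the window.

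The stretch was rich in measured windows and low in methylation. It held 129 windows per Mb, against 108.6 on the rest of chromosome 19 and 76.6 over all autosomes. Of its common windows 41.5% had a mean under 10%, and 27.2% of common autosomal windows did. Only 20 windows (5.13%) stood at 70% or more, where the autosomes had 10.5%. The windows were unevenly placed, with 150 of 516 between 23 and 23.5 Mb and 15 between 25.5 and 26 Mb. Of the 132 common windows between 23 and 23.5 Mb, 52.3% were under 10%, and their mean level was 17.6%. Between 22.5 and 23 Mb there were 15 common windows, none of them under 10%, with a mean of 60.3%. There were 42 runs of touching windows under 10%, which held 106 windows. The longest run had 6 windows, from 23491001 to 23497000, with a mean of 1.98%.

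The mean level over the stretch followed the level of the whole library. Over the 390 common windows HCR samples lay at 24.8% at the lowest, 26.9% at the median and 27.3% at the highest. LCR samples lay at 23.9% at the lowest, 25.5% at the median and 26.6% at the highest. All HCR samples except replicate 3 were above all LCR samples. The means were 26.6% ± 0.891 (SD, n = 6) in HCR and 25.4% ± 0.880 (SD, n = 8) in LCR, a difference of 1.22 percentage points (SE 0.479). Over all autosomal windows the difference was 1.13 points (SE 0.544). With each library set relative to its own autosomal mean, HCR samples stood at -9.02 points ± 0.373 and LCR samples at -9.11 points ± 0.298, a difference of 0.0929 points (SE 0.185). HCR replicate 3 and LCR replicate 7 had the lowest mean of their line and also the most windows without a value, 45 and 56 of 516. Whether the number of windows with a value plays a part in the level was not tested.

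**Figure D1:**
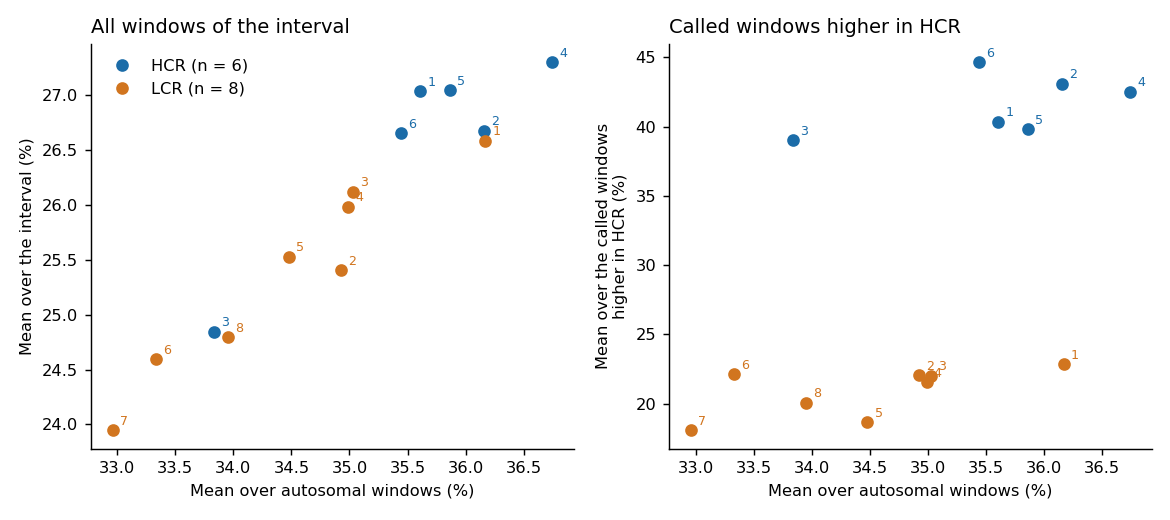
Mean methylation per sample, plotted against the mean over autosomal windows (both axes in percent); each point is 1 sample and the digit its replicate number. On the left, over all 390 windows, the HCR and LCR samples lie along one trend and overlap; on the right, over the 6 called windows higher in HCR, HCR samples lie between 39.0% and 44.6% and LCR samples between 18.1% and 22.8%.

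In the deposited levels 255 of the 390 windows (65.4%) had a higher mean in HCR and 135 a lower one. Over the autosomes the share with a higher mean in HCR was 64.8%. With the libraries centred, 142 windows were higher and 248 lower; centring takes 1.13 points off every difference, and the median size of the difference in windows under 10% was 0.335 points. Among the 162 windows under 10%, 112 were higher in HCR before centring and 26 after it. Among the 80 windows of 10 to 30% the counts were 59 and 48, with mean differences of 2.63 points before and 1.496 points after centring. The matching values over autosomal windows of this class were 1.79 and 0.656 points. At 70% or more, 7 of 20 windows were higher in HCR, with a mean difference of -0.556 points, whereas autosomal windows of this class averaged 0.711 points. The direction of a small difference thus hung on the scale.

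Of the 390 common windows 7 (1.79%) were called, against 0.569% of the 135802 windows tested over the table. Called means an adjusted p below 0.05 in limma, a moderated linear model, fitted to log2 logit levels of all those windows together. In HCR 6 were higher and 1 was lower, where the table gave 0.405% and 0.164%. With the libraries centred 7 were called as well, 5 higher and 2 lower, and 6 of these were among the 7 above; the table then gave 0.493% in all, 0.252% higher and 0.242% lower. The samples of the lines did not overlap at all in 10 windows (2.56%), 8 higher and 2 lower in HCR, against 0.71% over the table (0.558% and 0.152%). After centring, 8 windows remained apart (2.05%, against 0.553% over the table), 6 higher and 2 lower, where the table gave 0.319% and 0.234%. These shares are what brought the stretch to attention and nothing is read from them. The 7 called windows lay between 23383001 and 24131000, a span of 748 kb that held 140 common windows. None lay among the 117 common windows before it or the 133 after it, but this depended on the scale and on the samples used. Before the span, 22743001 was called with the libraries centred or quantile normalized, and 23354001 with untransformed levels or an offset of 0.05. After it, 24398001, 24443001, 24559001 and 25264001 were called with untransformed levels. With single samples left out, 23174001, 23354001, 24427001, 24557001, 24559001 or 25264001 was called in some fits. With only the 12 samples numbered 1 to 6 and no block, 22746001 was called. The 7 called windows are lettered a to g in the plots in order of position, and described here by the size of the difference.

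**Figure D2:**
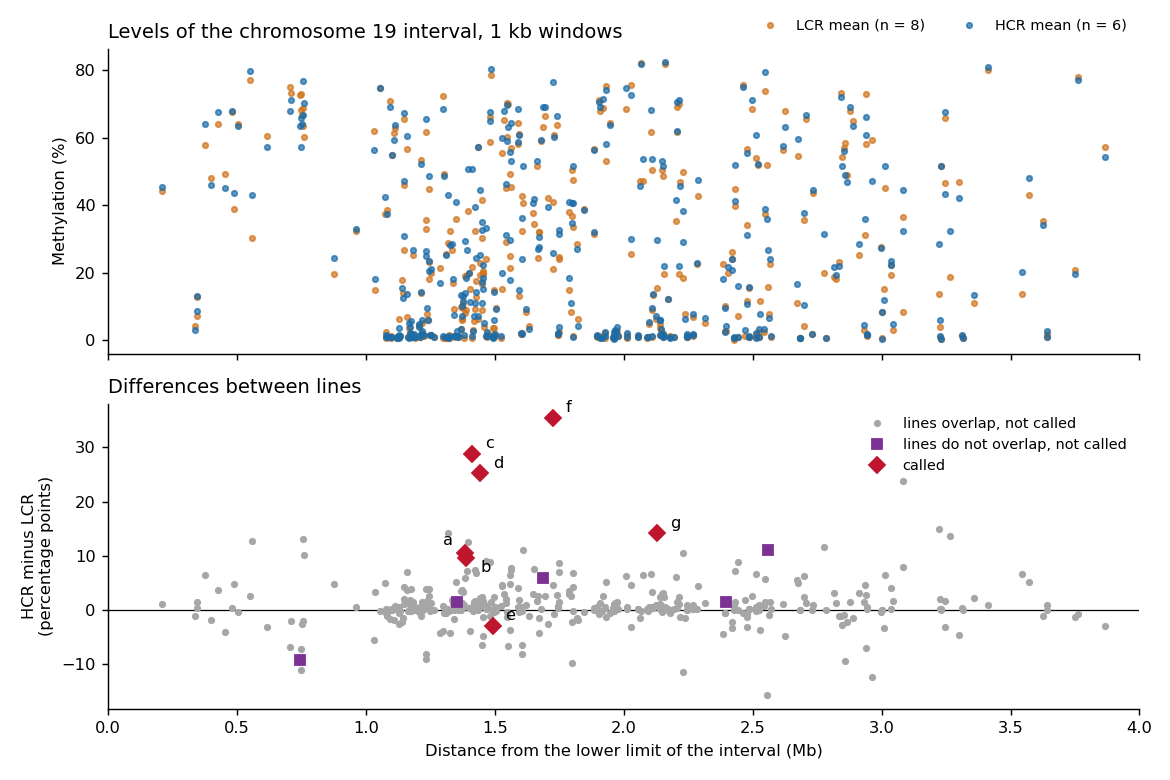
Upper panel, mean methylation (percent) of HCR and LCR for each of the 390 common windows; lower panel, HCR minus LCR in percentage points; the x axis is the distance in Mb from the lower limit of the interval. Most differences lie near 0, the called windows (diamonds, a to g) lie in the middle of the stretch, and 5 further windows without overlap between the lines (squares) are spread over the stretch.

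The largest difference was at 23727001 to 23728000 (window f), a window of high methylation in HCR and middle methylation in LCR. HCR samples had 68.6% at the lowest, 78.1% at the median and 79.2% at the highest, and LCR samples 31.7%, 41.8% and 48.6%. The lines were 19.9 points apart at their closest. Means were 76.5% ± 4.05 (SD, n = 6) and 41.0% ± 5.37 (SD, n = 8), a difference of 35.5 points (SE 2.52), and 34.3 points after centring. HCR replicate 2 stood below the other HCR samples, which ranged from 75.9% to 79.2%. The touching window at 23728001 to 23729000 showed nothing of this, with 60.1% ± 4.26 in HCR and 60.8% ± 4.29 in LCR.

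Window c, at 23411001 to 23412000, was at 43.5%, 50.1% and 56.5% (lowest, median and highest) in HCR and at 16.8%, 20.9% and 27.8% in LCR. The lines were 15.7 points apart at their closest, and the means of 50.6% ± 5.19 and 21.8% ± 4.47 differed by 28.8 points (SE 2.64). The window that touches it, at 23412001 to 23413000, was nearly unmethylated in both lines, at 1.36% ± 1.54 in HCR and 0.818% ± 0.924 in LCR. A methylated window with a large difference thus lay beside an unmethylated one with almost none. Of the 162 common windows of the stretch under 10%, 0 differed by at least 10 points. The touching window therefore does not tell how far the difference extends.

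Window d, at 23443001 to 23444000, measured 38.7%, 44.9% and 51.0% in HCR and 6.29%, 18.3% and 32.2% in LCR. The closest samples of the lines were LCR replicate 1 and HCR replicate 3, 6.50 points apart, and the LCR samples were more spread than the HCR samples (SD 7.49 and 4.35). The means differed by 25.2 points (SE 3.19). Its nearest common window, at 23441001 to 23442000, averaged 25.2% in HCR and 23.0% in LCR.

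Window g, at 24130001 to 24131000, had narrow ranges in both lines. HCR samples had 25.5%, 30.2% and 32.3% and LCR samples 13.9%, 15.5% and 16.9%, a difference of 14.2 points (SE 1.17). The SD was 2.71 in HCR and 1.06 in LCR in the deposited levels. Both were under the median SD of their line for autosomal windows of 10 to 30%. Those medians (5.74 and 5.15) were taken with the libraries centred in percent, so the scales differ. The difference was smaller than in windows d and c, and the lines were 8.56 points apart at their closest. As the window was picked by this contrast, that is a description only.

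Windows a and b lay 6 kb apart, and in each of them 1 or more samples of the lines overlapped. Window a, at 23383001 to 23384000, measured 26.8%, 29.97% and 31.97% in HCR and 15.7%, 18.3% and 27.7% in LCR, where LCR replicate 3 reached into the HCR range. The difference of its means was 10.6 points (SE 1.65). Window b, at 23389001 to 23390000, measured 12.3%, 18.8% and 23.7% in HCR and 5.26%, 8.755% and 13.0% in LCR, a difference of 9.59 points (SE 1.75). Both stood close to the threshold. When each of the 14 samples was left out in turn, window a was called in 1 of the 14 fits, the one without LCR replicate 3, with differences from 10.1 to 11.8 points. Window b was called in 4 of them (without HCR replicate 1 or LCR replicate 1, 6 or 8), with differences from 8.55 to 10.8 points. The other 5 windows were called in all 14 fits.

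Window e, at 23491001 to 23492000, was the called window lower in HCR, and the only one near 0. HCR samples had 0.306%, 0.848% and 1.34% and LCR samples 2.08%, 4.02% and 5.17%. The difference of -2.91 points (SE 0.415) was small in size but left the lines without overlap, by 0.738 points. This window opens the longest unmethylated run of the stretch. The next 4 windows of that run averaged 0.885% to 1.34% in HCR and 1.05% to 1.46% in LCR. The last one, at 23496001, went the other way, with 6.00% ± 1.83 in HCR and 3.63% ± 1.36 in LCR.

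**Figure D3:**
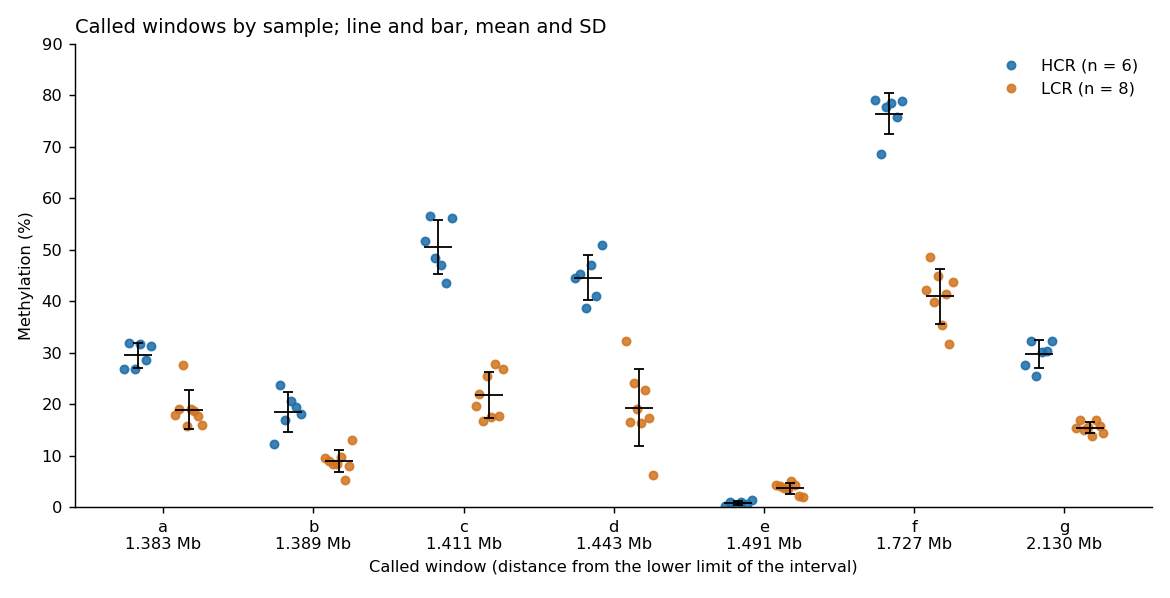
Methylation (percent) of each sample in the 7 called windows, with the mean and SD of each line; the x axis gives the distance from the lower limit of the interval. In windows c, d, f and g all HCR samples lie above all LCR samples, in a and b the lines overlap, and in e all samples lie at 5.17% or less.

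Most windows around the called ones differed little between the lines, except near windows a and b. Some of these neighbours were under 10%, a level at which 0 of the 162 windows of the stretch differed by at least 10 points. Within 20 kb of a called window there were 60 different common windows, 58 of them not called. Of the 60, 47 were higher in HCR in the deposited levels, a direction shared by 65.4% of all common windows of the stretch. In 0 of the 60 did the lines stand apart, where the share over the table was 0.71%, so nothing is read from this count. Of the 58, 1 differed by at least 10 points, against 3.9% over the table. It was 23395001 to 23396000 between windows b and c, with 50.8% ± 8.92 in HCR and 38.2% ± 8.01 in LCR. Its difference of 12.6 points was larger than those of windows a and b. Near windows a and b the differences in the deposited levels were mostly in one direction. There 11 of 12 neighbours of window a and 11 of 13 of window b were higher in HCR, with medians of 3.40 and 3.39 points. With the libraries centred, the neighbours at 23376001, 23381001 and 23400001, common to both, came out lower in HCR. The touching window before a, at 23382001 to 23383000, measured 14.0% ± 5.26 in HCR and 8.10% ± 5.26 in LCR. These sets overlap, since windows a and b are neighbours of each other. Around window f the median of 6 neighbours was 1.06 points, around window g that of 11 was 0.845 points, and around window d that of 13 was 1.11 points. Each of these medians, in the deposited levels, was below the 1.13 points between the lines over all autosomal windows. Windows c and f had a touching common window without a like difference, that of window c being nearly unmethylated in both lines. The nearest common window was 3 kb from window b, 2 kb from window d and 5 kb from window g, so how far the difference extends there was not measured.

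**Figure D4:**
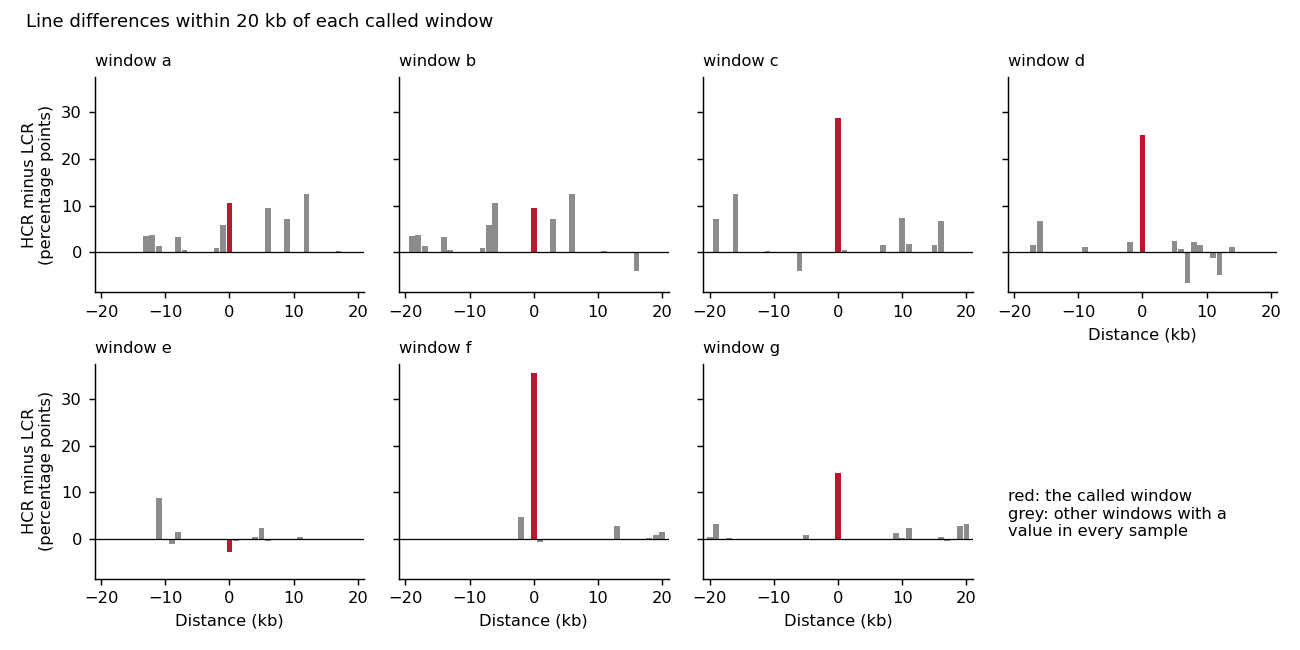
HCR minus LCR (percentage points) in each called window (red, at 0) and in every other common window within 20 kb (grey), against the distance in kb. In windows c, d, f and g the red bar stands well above every grey one, while windows a and b have further bars above 0 on both sides and window e is smaller than a neighbour 11 kb away.

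Taken over the deviations of both lines together, the called windows showed no common rise and fall. For each pair of called windows, Pearson's r was computed over the 14 deviations from the line means, with the libraries centred. Over the 21 pairs r had a median of 0.092 and ran from -0.44 (windows b and d) to 0.49 (windows c and g), and 12 pairs were above 0. The points share libraries, so these values are descriptions. Over the 6 HCR samples alone r ran from -0.72 (windows b and f) to 0.81 (windows a and g). Over the 8 LCR samples alone it ran from -0.83 (windows b and d) to 0.57 (windows c and f). For some pairs the lines gave unlike values, such as windows a and b (0.76 in HCR and -0.28 in LCR). For others they were alike, such as windows c and g (0.46 and 0.53).

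Between touching windows the same measure depended on how the libraries were centred. Of the 389 pairs of consecutive common windows 133 (34.2%) were touching, against 24.6% over the autosomes. With the autosomal mean subtracted in percent, their median r was 0.41, and that of all touching autosomal pairs was 0.27. Without centring it was 0.088 and 0.068, and with centring on the log2 logit scale 0.10 and 0.088. Of the 133 pairs, 64 had both windows under 10%. Their median r was 0.68 with centring in percent and -0.06 without it. Centring in percent moves all windows of a library by one amount, from -2.004 to 1.78 points, which in windows near 0 is as large as the spread itself. For the 42 touching pairs with both windows at 10% or more, the median r was 0.21 with centring in percent, 0.19 without it and 0.14 on the logit scale. Autosomal pairs of this kind had 0.044, 0.078 and 0.046. At over 1 to 10 kb the 177 pairs had a median r of 0.017 with centring in percent, and at over 10 to 100 kb the 73 pairs had 0.015. Autosomal pairs at these distances had 0.019 and 0.021. The mix of levels changed with distance. For pairs with both windows under 10%, the medians at these distances were 0.56 (22 pairs) and 0.52 (6 pairs). With both at 10% or more they were -0.027 (71 pairs) and 0.055 (40 pairs).

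**Figure D5:**
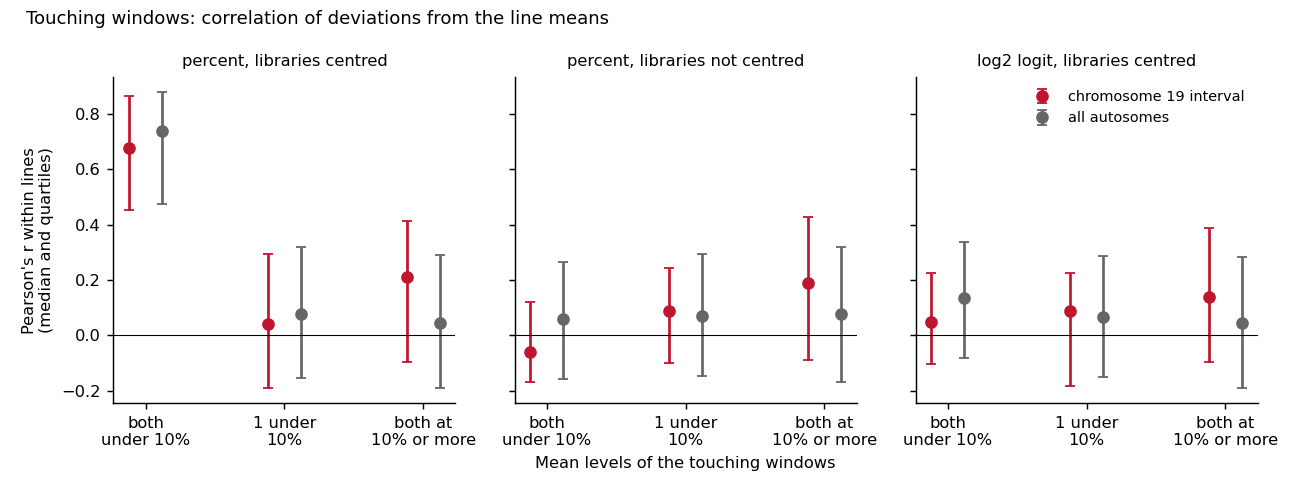
Pearson's r of within-line deviations between touching windows (median, with bars from the first to the third quartile), by the mean levels of both windows (x axis), for the stretch and all autosomes, on 3 scales. Pairs under 10% have a median of 0.68 in the stretch only where libraries are centred in percent; for pairs at 10% or more the medians of the stretch are 0.14 to 0.21 on the 3 scales.

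Of the touching pairs that held a called window, that of window e had the largest r with centring in percent, 0.51, but 0.15 without it and 0.049 on the logit scale. Between window a and the window before it r was 0.30, 0.48 and 0.23 on these scales. For window c and the window after it r was 0.31, 0.14 and 0.13, and for window f and the window after it 0.091, 0.10 and 0.077. The order of these pairs changed with the scale.

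The 5 windows in which the lines did not overlap but which were not called differed by 1.39 to 11.04 points in size. At 24559001 to 24560000 HCR samples had 24.4%, 25.7% and 32.1% (lowest, median, highest) and LCR samples 10.2%, 15.9% and 22.0%, a difference of 11.04 points (SE 1.904). At 23687001 to 23688000 the levels were 69.1% ± 2.14 and 63.2% ± 1.32, a difference of 5.91 points (SE 0.991). The first of these differences was larger than those of the called windows a and b. At 22743001 to 22744000, the other window lower in HCR, HCR samples had 54.8%, 63.9% and 67.7% and LCR samples 68.2%, 72.7% and 77.2%. The difference was -9.19 points (SE 2.22), the closest samples were 0.531 points apart, and the window was called when the libraries were centred. The remaining ones, at 23354001 to 23355000 and 24398001 to 24399000, were nearly unmethylated, with differences of 1.39 and 1.42 points; both overlapped once the libraries were centred in percent.

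In size, the difference reached 10 points or more in 21 of the 390 windows (5.38%), against 3.9% over the table. HCR was higher in 17 and lower in 4, and 5 were called. In 15 of the other 16 the samples of the lines overlapped. The largest of these, picked out after its values were seen, was at 25083001 to 25084000, with 32.2% ± 16.6 in HCR and 8.47% ± 6.90 in LCR. HCR samples there ran from 10.1% to 59.3%, and at least 1 of them lay under the highest LCR sample at 15.3%. It was 1 of 22 common windows between 25 and 25.5 Mb, whose mean was 25.9% ± 1.21 in HCR and 22.8% ± 2.29 in LCR. This difference of 3.12 points was the largest of the 8 segments of 500 kb, and the samples overlapped, at 24.7% to 27.7% and 18.9% to 25.5%. In the segment with the most called windows, 23 to 23.5 Mb, the difference was 1.31 points, and after centring it was 0.177 points.

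In 1 touching pair, also picked from its values, the means differed in opposite directions. In the window starting at 24228001 HCR was 10.4 points higher (29.0% ± 5.80 and 18.6% ± 4.70), and in the next, starting at 24229001, it was 11.5 points lower (38.4% ± 23.2 and 49.9% ± 13.5). The SE of the second difference was 10.6 points, and it was -4.57 points without HCR replicate 4 and -17.2 points without HCR replicate 3, so it did not stand out from the spread. The window at 24229001 was the one with the largest spread within HCR among windows not called. Its HCR samples ran from 3.797% in replicate 4 to 67.2% in replicate 3, and its LCR samples from 24.4% to 67.9%. The range of its HCR samples was wider than the difference between the line means in any window of the stretch.

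Large spreads within a line were found in windows of middle and high level. At 23435001 to 23436000 HCR replicate 3 had 15.4% and replicate 2 45.4%, while the other HCR samples had 67.1% to 76.2% and the LCR samples 48.0% to 66.0%. At 25084001 to 25085000 the HCR samples ran from 17.7% to 79.5% and the LCR samples from 24.2% to 49.6%. At 22704001 to 22705000 HCR replicate 3 had 33.8%, and the other samples of both lines lay between 67.9% and 78.7%. Among LCR samples the widest spread was at 22755001 to 22756000, where 6 samples had 44.3% to 67.5% and replicates 1 and 8 had 89.7% and 92.4%; the HCR samples there had 71.0% to 79.9%. At 23562001 to 23563000, 23663001 to 23664000 and 24845001 to 24846000 the LCR samples had an SD of 17.1, 13.9 and 14.6, with means of 45.4%, 51.6% and 54.4%. HCR replicate 3 was the lowest HCR sample in 2 of the 4 windows with the largest HCR spread and the highest in 1 of them.

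With the libraries centred in percent, the usual spread within lines was near that of windows of like level elsewhere. The median SD of the centred levels over the 390 windows was 3.33 points in HCR and 3.23 points in LCR. Both were lower than the autosomal medians of 4.35 and 4.25. Within classes of level the values were closer, with the widest gap (4.40 and 5.34 points in HCR) at 50 to 70%. For windows of 30 to 50% they were 7.25 and 6.97 points in the stretch and 6.61 and 6.34 points over the autosomes. For windows under 10% they were 1.28 and 1.25 points in the stretch and 1.25 and 1.31 points over the autosomes. The amounts subtracted in centring, from -2.004 to 1.78 points, are as large as these values. Their likeness therefore says little about the spread of the deposited levels near 0. The stretch holds more windows of low level, and those have the smallest spread.

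At its limits the stretch ended in sequence with few windows. The first common window inside, at 22210001 to 22211000, measured 45.4% ± 3.90 in HCR and 44.3% ± 2.72 in LCR, and the last one outside before it, at 21931001 to 21932000, 75.4% ± 7.01 and 74.1% ± 9.10. At the upper limit the last window inside, at 25866001 to 25867000, measured 54.3% ± 2.53 and 57.3% ± 12.1. The first one outside, at 26044001 to 26045000, measured 41.2% ± 10.7 in HCR and 27.7% ± 2.45 in LCR, and its lines did not overlap, by 1.36 points. A window apart between the lines thus lay just beyond the chosen limit as well, though it was not called.

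The presence of a value was not used in the choice of the stretch, and the number of windows without one did not pass a test between the lines. HCR samples lacked a value in 9 windows at the lowest, 20.5 at the median and 45 at the highest, and LCR samples in 1, 16.5 and 56. The means were 22.5 ± 12.4 (SD, n = 6) and 18.0 ± 17.3 (SD, n = 8), and the lines overlapped widely (two-sided exact permutation p = 0.611 over all 3003 assignments, adjusted p = 0.611 over 2 comparisons). Relative to the share of windows without a value in the same library over the whole table, HCR samples stood at 0.812 ± 0.104 and LCR samples at 0.616 ± 0.341 (exact permutation p = 0.204, adjusted p = 0.408). Of the 126 windows that lacked a value in any sample, 43 lacked it in HCR only, 30 in LCR only and 53 in both lines. HCR replicate 3 or LCR replicate 7 was among the samples without a value in 81 of them. These windows averaged 46.6%, against 25.9% for the common ones. In 1 of the 126 the lines did not overlap, against 1.24% of such windows over the table: at 24285001 to 24286000 the 5 HCR values ran from 55.3% to 71.8% and the 8 LCR values from 29.2% to 54.2%.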

How the data were processed

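Methylation was measured by RRBS in 14 soleus samples. The submitters' processing notes name FastQC, Trim Galore 0.6.10, Bismark, Bowtie2 and the rn7 build. The deposited values are the percent methylation of each library in windows of 1000 bp. No read counts are given, so depth is unknown and errors are spreads between libraries. No source used here gives the coverage minimum or when a value was left empty; each window has at least 4 HCR and 4 LCR values. Groups came from the sample titles, and 0 sample columns were left unused. Levels were divided by 100, transformed to log2((level + 0.01)/(1 - level + 0.01)), the log2 logit, and fitted with limma 3.58.1 (R 4.3.3, line as the only factor, variance trend, Benjamini-Hochberg over 135802 windows). The fit was also run on simulated levels with independent noise and changes placed only in windows of middle level. That run did not cover offsets between libraries or changes in windows near 0. Centring subtracted each library's autosomal mean, in percent for levels and correlations and on the log2 logit scale for limma. Other steps ran in Python 3.11.15 (pandas 2.3.3, numpy 2.4.6, scipy 1.17.1).

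The members and the rules were chosen with earlier results of these data known. Windows named by rule were all called ones, those touching them, the windows without overlap and the windows at the limits. The rule also named the 4 not called with the largest SD in each line. Others (23395001, 23441001, 23496001, 24228001, 25083001, neighbours whose direction changed with centring, and the further calls under other settings) were picked from their values or place. Alternatives were other scalings, offsets and filters, a replicate block and leaving out samples; leaving out HCR replicate 3 with LCR replicate 7, logit centring and pairs at 10% or more were added after seeing the data. Sequences and genes of rn7 were not used here.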

Additional observations from a re-analysis of the deposited data

Results flagged for a closer look

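Of 62 sets of values (3 measures of the stretch and 28 named windows, each per line), 7 held a sample far from the others of its line. Chance gives about 1 in 20 sets, but that share does not apply here, since 8 of the windows were taken for their large SD and others for the difference between the lines. HCR replicate 3 was the sample in 3 of them. Its mean over the stretch was 24.8%, with the other HCR samples at 26.7% to 27.3%. In the window at 22743001 it had 54.8%, with the others at 63.2% to 67.7%, and at 22704001 it had 33.8%, with the others at 68.7% to 77.5%. LCR replicate 7 lacked a value in 56 windows, and the other LCR samples in 1 to 22. LCR replicate 3 had 27.7% in the window at 23383001, with the others at 15.7% to 19.1%. HCR replicate 2 had 68.6% in the window at 23727001, with the others at 75.9% to 79.2%. HCR replicate 4 had 70.2% in the window at 23663001, with the others at 47.9% to 52.2%.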

How the results depend on the processing

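The count of 7 called windows, where the table held 773 calls, was 13 with untransformed levels. Of those 13, 12 were higher in HCR, and the table held 1006 calls. The count was 5 to 8 without each sample in turn, where the table held 495 to 669 calls. It was within 1.5 times its value in the other settings, and 6 without HCR replicate 3 and LCR replicate 7 (502 calls over the table). With the replicate block on the 12 samples numbered 1 to 6 it was 3, all among the 7, and 7 for those samples without the block. The table held 71 calls with the block and 444 without it, so the 3 and the 7 stand beside unlike totals. No pairing by number was seen in levels centred on the log2 logit scale. The correlation of deviations of same-numbered samples ran from -0.032 to 0.034, and 0 of 6 HCR samples correlated best with their own number. Centring removes any offset shared by same-numbered libraries, so a pairing of that kind could not be seen. The block gave a mean difference of 0.889 points over same-numbered samples. The windows without overlap were 4 at a gap of at least 5 points and 10 to 14 without each sample. These counts have no share over the table beside them, and nothing is read from them. The mean difference of the stretch, 1.22 points, was 0.0929 with centring, 0.27 after quantile normalization and 1.02 to 1.57 without each sample. The median r of touching windows was 0.088 without centring, 0.051 with log2 logit levels, 0.19 for windows of 5 to 95%, 0.21 for pairs at 10% or more, 0.10 with logit centring, 0.14 with both, and 0.33 to 0.44 without each sample. By the median absolute deviation the spread of the centred levels was 2.50 points in HCR and 2.73 in LCR. Without each sample it was 2.97 to 3.38 and 3.07 to 3.30, and without both HCR replicate 3 and LCR replicate 7 it was 2.97 in HCR. The difference in windows without a value was 0 without HCR replicate 3 and up to 9.93 without LCR replicate 7 (exact p = 0.111). The 7 called windows kept their direction in every setting, and 35 calls were lost under single settings, those of windows a and b except for d and g with the block. Of the 19 other windows inside the stretch that were named by rule, 6 changed direction in some setting and 5 were called in some setting. Depth is unknown, so differences of a few points in windows near 0 cannot be set against counting error.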
